A study of Mus musculus with 6 samples.

Results

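Amino acid transporters of 7 solute carrier (SLC) families were followed in 410.4 cells, a mouse mammary tumour cell line, after 2 days in medium that carried neutrophil extracellular traps (NETs) or in a control medium. The members are all rows of the deposited gene table whose symbol begins with Slc1a, Slc3a, Slc6a, Slc7a, Slc36a, Slc38a or Slc43a and a digit, 67 of 55809 symbols. Of these, 63 are transporter genes or their heavy chains and 4 are genes named for lying opposite a transporter (Slc7a6os, Slc6a19os, Slc36a1os, Slc36a3os). The control group held 3 libraries of cells in DMEM with 0.5% serum, abbreviated Veh in the titles. The NET group held 3 libraries of the same line in NETs collected in the same kind of medium, so the cell line and the low serum are common to both groups and no other allele or agent is named for them. Activated neutrophils release NETs, meshes of chromatin coated with enzymes from their granules. All libraries come from a single tumour line, nothing in the labels tells whether replicates came from separate cultures, and p-values hence cover the spread of these libraries alone, which may be technical. The amino acid content of the media was not measured here, and anything that differed between the media cannot be told apart from the NETs themselves.

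Cells take up amino acids through families that differ in what they carry and in what drives them. Many SLC38 and some SLC1 proteins bring in neutral amino acids with sodium, while the other SLC1 proteins carry glutamate. Several SLC7 light chains swap an amino acid for another and reach the membrane only when bound to an SLC3 heavy chain. The cationic branch of SLC7 carries arginine and lysine without a heavy chain. SLC6 proteins use sodium and chloride to take up glycine, taurine, creatine, betaine and other small molecules, while some SLC36 and SLC38 members sit on lysosomes, where amino acid supply is signalled to mTORC1. In tumour cells SLC7A5, SLC1A5 and SLC7A11 are known as the main routes for leucine, glutamine and cystine, and several of these genes are known targets of ATF4, the transcription factor of the amino acid starvation response.

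With NETs the genes for the glutamine exchanger ASCT2 (Slc1a5), the cystine exchanger xCT (Slc7a11), the leucine exchanger LAT1 (Slc7a5) and the arginine transporter CAT1 (Slc7a1) fell, and those for taurine (Slc6a6) and creatine (Slc6a8) uptake rose. Slc1a5 went from 132 ± 1.65 to 67.2 ± 5.00 CPM, Slc7a11 from 156 ± 6.47 to 102 ± 0.336 CPM and Slc7a5 from 621 ± 23.1 to 436 ± 15.7 CPM (CPM, the counts of a gene scaled to a common library total by TMM; mean ± SD, n = 3). Slc6a6, the taurine transporter gene, rose from 353 ± 15.5 to 677 ± 16.9 CPM. RNA came from bulk cultures, where fewer cells of a type and less RNA per cell cannot be told apart. The filter on low counts left 23 of the 63 transporter genes for testing and removed 40, and 17 of the 40 had no count in any library. By the quasi-likelihood test of edgeR, with p-values adjusted after Benjamini-Hochberg over 13956 genes, 18 of the 23 changed (background over all tested genes 38.9%). Of these 9 rose (background 20.2%) and 9 fell (background 18.7%). At least a 1.5-fold change on top of the test was met by 3 that rose (background 6.53%) and 3 that fell (background 5.12%). Genes with more counts pass more readily, so the 20 members with a mean of at least 5 CPM were also set against genes at that level. Of these, 16 changed (background 45.3%), 7 rose (23.6%) and 9 fell (21.7%), 1 rose by at least 1.5-fold (5.0%), 3 fell by as much (3.46%), and 17 had groups that did not overlap (54.8%). At 19 of the 23 every library of one group lay above every library of the other (background 49.0%). Scaled by library size alone, 5 rose and 11 fell, while the share of calls over the whole table that were higher went from 52.0% to 35.9%. The median log2 fold change of the tested members was -0.10, against 0.00 for all tested genes. The filter on low counts was passed in all 6 libraries by 20 of the 23. Slc6a12 passed it through the NET libraries alone and so had to differ. It is counted among the 18 that changed, the 9 that rose, the 3 that rose by at least 1.5-fold and the 19 without overlap. Slc3a1 is in each of these counts too. It passed in 2 control libraries, fewer than the 3 that the filter asks for, and in all 3 NET libraries.

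**Figure D1:**
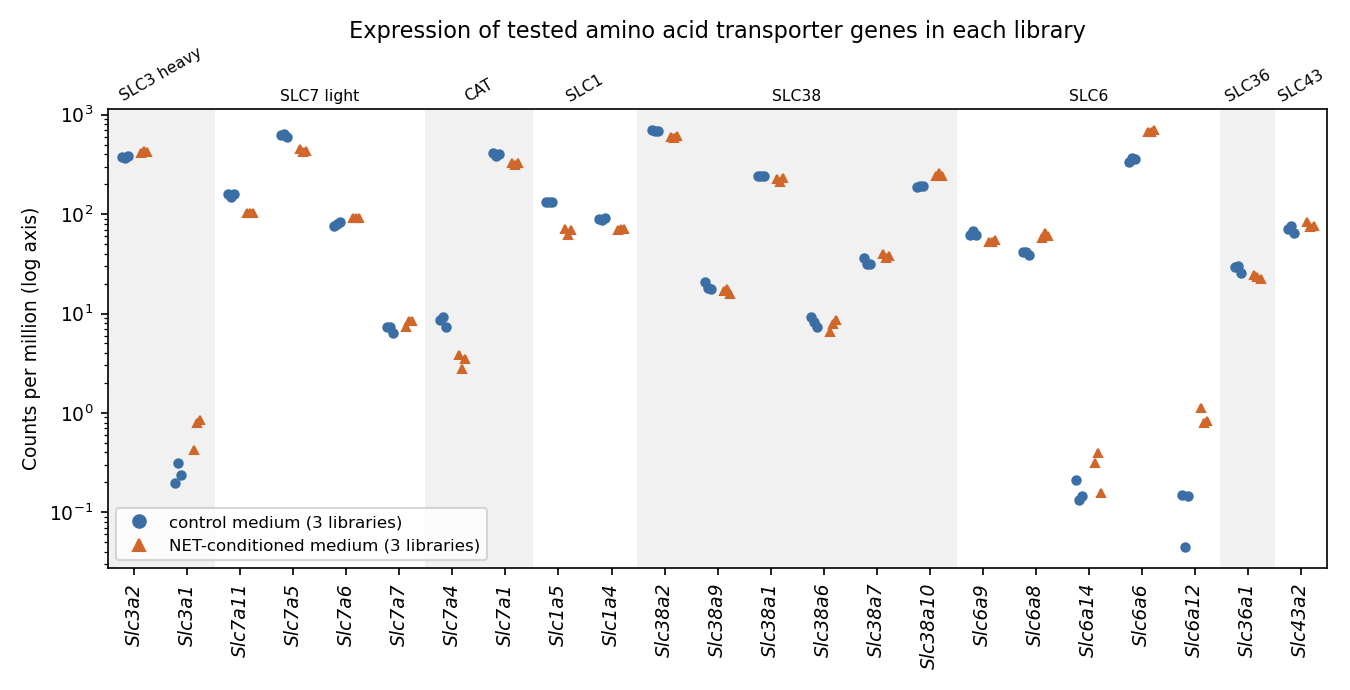
CPM on a log axis for the 23 tested transporter genes, grouped by role, with 1 point for each of 3 control and 3 NET libraries. Slc1a5 stands at 131 to 134 CPM in the control points and 61.5 to 70.4 CPM in the NET points, while Slc6a6 lies between 335 and 364 CPM in the control points and between 667 and 697 CPM in the NET points.

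Slc3a2 encodes 4F2hc, the heavy chain that carries most SLC7 light chains to the plasma membrane. It stood at 375, 369.5 and 389 CPM in control replicates 1 to 3 and at 414, 429 and 426 CPM in NET replicates 1 to 3. Each NET library lay above each control library, and the rise was small (1.12-fold, log2 fold change 0.16, SE 0.0463, adjusted p = 0.00977). Its call was lost when libraries were scaled by size alone (log2 fold change 0.10, adjusted p = 0.0827). Slc3a1, the heavy chain known from kidney and gut cystine transport, was near the detection limit with 13, 14 and 13 counts in control medium and 19, 24 and 44 counts with NETs (log2 fold change 1.49, SE 0.412, adjusted p = 0.00827). Slc3a1 overlaps Prepl on the other strand, which had a mean of 40.7 CPM over the control and 42.95 CPM over the NET libraries (adjusted p = 0.302). Whether counting used strand is not stated by any source used here, so the reads of such pairs cannot be told apart. The call of Slc3a1 also ended without control replicate 1 (log2 fold change 1.34) and without NET replicate 3 (1.28).

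The light chains did not move together. Slc7a5, the LAT1 exchanger for leucine and other large neutral amino acids, stood at 631, 637 and 594 CPM in control replicates 1 to 3 and at 452, 420.2 and 435 CPM in NET replicates 1 to 3. All 3 NET libraries lay below all 3 control libraries, and Slc7a5 was 1.43-fold lower (log2 fold change -0.51, SE 0.0494, adjusted p = 3.23e-07). Slc7a11, the xCT chain that exchanges cystine for glutamate, stood at 160.0, 148 and 159 CPM in the control libraries and 103, 102 and 102 CPM in the NET libraries. The 3 NET values were almost the same and below every control value (1.52-fold lower, log2 fold change -0.61, SE 0.0482, adjusted p = 2.79e-08). Slc7a6 encodes y+LAT2, which exchanges arginine for glutamine. Its values were 75.3, 79.8 and 83.4 CPM in the control libraries and 90.4, 91.4 and 91.1 CPM in the NET libraries, without overlap (1.14-fold higher, log2 fold change 0.19, SE 0.0520, adjusted p = 0.00687). That call ended without control replicate 1 (log2 fold change 0.15, adjusted p = 0.0583) and with library size alone (0.13, adjusted p = 0.0533). Slc7a7, the related y+LAT1 chain, stood at 7.29, 7.34 and 6.39 CPM in the control libraries and 7.36, 8.34 and 8.39 CPM in the NET libraries and did not pass (log2 fold change 0.20, SE 0.108, adjusted p = 0.171). It overlaps Oxa1l on the other strand, which held 75.3 and 73.5 CPM in the 2 groups (adjusted p = 0.655). Of the other light chains, Slc7a8 (LAT2), Slc7a10, Slc7a12, Slc7a13 and Slc7a15 had no count in any library, which allows up to 0.0902 to 0.199 CPM per library at 6 counts, and Slc7a9, the partner of Slc3a1, had 2 counts in 1 control library.

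Stretches of 3 promoters are shown because Slc7a11 and other members are known ATF4 targets and these hold TGATGNAAN, the element that ATF4 binds with C/EBP proteins. Windows of 250 bases before to 50 after the start site were taken from RefSeq's table of build GRCm38.p6, and 17 of the 23 tested transporters had one. Slc1a5, Slc38a1, Slc6a6, Slc6a8, Slc7a4 and Slc7a5 had none in that table. The element was searched on both strands and matched in 3 of the 17 genes, Slc7a11, Slc1a4 and Slc7a7, and in 3.95% of all 32851 windows. For this and the other motifs a gene was counted if any of its windows matched. Some genes have several windows, so shares of genes and of windows are unlike measures. Of the 6 genes with a window that fell, Slc7a11 and Slc1a4 had a match. Slc7a11 has 2 matches, at bases -66 to -58 and, on the other strand, -48 to -40, counted from the start site at 1. Slc1a4 has 1 on the other strand at -5 to 4. Slc7a7, which did not pass the test, has them at -141 to -133, outside the stretch shown, and at -1 to 8, the latter being also at -243 to -235 of another start site. The stretches below run 5′ to 3′ along each gene, all of which lie on the minus strand, at chr3:50443614-50443733, chr11:20332694-20332813 and chr14:54417925-54418044 of GRCm38.p6, with the matches in capitals.
Slc7a11: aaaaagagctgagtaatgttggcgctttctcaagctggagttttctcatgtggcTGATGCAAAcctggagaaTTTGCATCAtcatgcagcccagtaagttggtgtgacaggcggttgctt
Slc1a4: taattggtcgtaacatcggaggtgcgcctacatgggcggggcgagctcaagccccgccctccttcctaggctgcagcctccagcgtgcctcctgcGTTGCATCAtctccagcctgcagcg
Slc7a7: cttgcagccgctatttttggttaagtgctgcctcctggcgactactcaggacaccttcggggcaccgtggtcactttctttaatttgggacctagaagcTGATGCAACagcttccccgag
The paired elements of Slc7a11 face each other across a short spacer, while those shown for Slc1a4 and Slc7a7 lie across a start site. Matches are descriptions of letters and not of bound sites, and a gene without one may hold it outside these windows. Of the other motifs searched on both strands, the antioxidant element core TGACNNNGC matched in Slc36a1, Slc38a2, Slc6a9, Slc7a1 and Slc7a6 (12.4% of all windows) and not in Slc7a11. AP-1, TGANTCA, matched in Slc38a10, Slc38a7, Slc3a1, Slc6a12, Slc6a14 and Slc7a1 (7.81%). The E-box CACGTG matched in Slc36a1 and Slc38a7 (7.15%). Among the 6 genes with a window that fell, 4 matched the antioxidant core, 1 matched AP-1 and 1 matched the E-box. An E-box and the antioxidant core of Slc36a1 overlap, and the other matches of different motifs do not.

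Set against their heavy chain within each library, which needs no scaling between libraries, Slc7a5 and Slc7a11 stood lower with NETs. RPKM, that is CPM per kilobase of exon, of Slc7a5 relative to Slc3a2 were 1.60, 1.64 and 1.46 in control medium and 1.04, 0.932 and 0.972 with NETs. By this measure, which depends on the deposited gene lengths, Slc7a5 exceeded its heavy chain in every control library and in 1 NET library. It lay just under it in the other 2. For Slc7a11 the ratio to Slc3a2 was 0.108, 0.102 and 0.104 in control medium and 0.0628, 0.0602 and 0.0610 with NETs, 58.7% of control by the means. The ratio of Slc7a6 to Slc3a2 was 0.155, 0.167 and 0.166 in control medium and 0.169, 0.164 and 0.165 with NETs, with overlapping groups. In a two-sided exact permutation test of 3 against 3 libraries the first 2 ratios gave p = 0.1, the smallest this design allows, and Slc7a6 gave p = 0.6. Over the 8 ratios computed, which were chosen after the values had been seen, the adjusted p was 0.133 for both and 0.686 for Slc7a6.

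**Figure D2:**
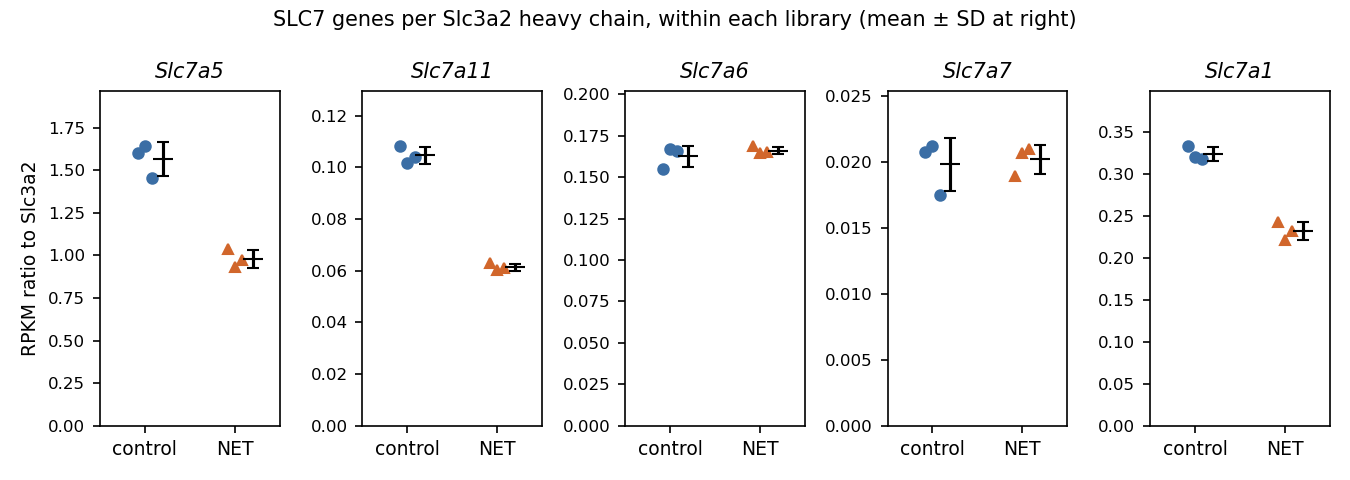
RPKM of 5 SLC7 genes divided by RPKM of Slc3a2 in the same library, with axes from 0, 1 point per library and the mean ± SD (n = 3) at the right of each group. Slc7a5 falls from a mean of 1.57 to 0.981 and Slc7a11 from 0.105 to 0.0614, whereas the groups overlap for Slc7a6 and Slc7a7; Slc7a1 needs no heavy chain and is drawn for scale (0.324 to 0.232).

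Both tested members of the cationic branch fell. Slc7a1, the CAT1 transporter for arginine, lysine and ornithine, stood at 408, 387 and 404 CPM in control replicates 1 to 3 and at 329, 310.5 and 323 CPM in NET replicates 1 to 3. The NET libraries lay below the control libraries without overlap, 1.25-fold lower (log2 fold change -0.32, SE 0.0475, adjusted p = 4.71e-05). Slc7a4, a relative whose substrate is unsettled, had the largest fall of the members with a mean of at least 5 CPM. It stood at 8.54, 9.18 and 7.39 CPM in the control libraries and 3.81, 2.79 and 3.45 CPM in the NET libraries, 2.47-fold lower (log2 fold change -1.30, SE 0.135, adjusted p = 7.37e-07). Slc7a2, the CAT2 gene induced in activated macrophages, had at most 2 counts in a library. Slc7a3 and Slc7a14 had at most 8 and 2.

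Both tested SLC1 genes also fell. Slc1a5 encodes ASCT2, the sodium-dependent exchanger that brings in glutamine. It stood at 131, 134 and 131 CPM in control replicates 1 to 3 and at 70.4, 61.5 and 69.9 CPM in NET replicates 1 to 3. No NET library came near the control range, and the gene was 1.96-fold lower (log2 fold change -0.97, SE 0.0560, adjusted p = 4.46e-10). Slc1a4 encodes ASCT1, which exchanges serine, alanine and cysteine and carries the element printed above at its start site, and stood at 90.3, 86.3 and 91.5 CPM in the control libraries and 69.4, 70.8 and 71.3 CPM in the NET libraries. It was 1.27-fold lower, again without overlap (log2 fold change -0.34, SE 0.050, adjusted p = 3.50e-05). RPKM of Slc1a5 relative to Slc7a5 were 0.184, 0.187 and 0.196 in control medium and 0.139, 0.130 and 0.143 with NETs; the NET ratios all lay below the control ratios (two-sided exact permutation p = 0.1, adjusted p = 0.133 over the 8 ratios). The glutamate transporter genes proper were at or near 0: Slc1a2 had 12, 20 and 20 counts in control medium and 8, 4 and 6 counts with NETs, Slc1a3 had 0 counts in control medium and 12, 4 and 0 with NETs, Slc1a1 and Slc1a7 at most 2, and Slc1a6 none. None of these was tested.

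The SLC38 family split by member. Slc38a2, the SNAT2 transporter for alanine, glutamine and other small neutral amino acids, which cells are known to induce on amino acid shortage, stood at 703, 688 and 684 CPM in control replicates 1 to 3 and at 602, 582 and 614 CPM in NET replicates 1 to 3. It was 1.15-fold lower without overlap (log2 fold change -0.21, SE 0.0462, adjusted p = 0.00184). Slc38a1, the SNAT1 gene, stood at 242, 240.4 and 242 CPM in the control libraries and 225, 211 and 232 CPM in the NET libraries and did not pass, although the groups did not overlap (log2 fold change -0.12, SE 0.0486, adjusted p = 0.0686). With upper-quartile scaling and with library size alone Slc38a1 passed as lower (log2 fold changes -0.14 and -0.18, adjusted p = 0.0305 and 0.0061). Slc38a10, a broadly expressed family member, went the other way, at 186, 191 and 193 CPM in the control libraries and 242, 257 and 242 CPM in the NET libraries (1.30-fold higher, log2 fold change 0.38, SE 0.0472, adjusted p = 6.34e-06). Of the lysosomal members, Slc38a7, which exports glutamine, stood at 36.4, 31.6 and 31.6 CPM in the control libraries and 39.4, 36.03 and 37.7 CPM in the NET libraries, with control replicate 1 inside the NET range (log2 fold change 0.18, SE 0.0680, adjusted p = 0.0428). Its call ended in 7 of 16 alternatives, among them library size alone (log2 fold change 0.11) and the omission of control replicate 2 or 3 or NET replicate 1 or 3 (0.15 to 0.18). Slc38a9, the arginine sensor of mTORC1, stood at 20.99, 18.2 and 17.5 CPM in the control libraries and 16.9, 17.5 and 15.8 CPM in the NET libraries and did not pass (log2 fold change -0.18, SE 0.0844, adjusted p = 0.104). It passed as lower with library size alone (log2 fold change -0.25, adjusted p = 0.0327) and without control replicate 3 (-0.23, adjusted p = 0.0458). Slc38a6 lay between 6.54 and 9.19 CPM over all libraries (adjusted p = 0.544). Slc38a3, Slc38a4 and Slc38a5 had at most 7, 6 and 2 counts, and Slc38a8 and Slc38a11 none.

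In the SLC6 family 3 of 5 tested genes rose and 1 fell, Slc6a12 being counted with the limit given beside it. Slc6a6, which takes up taurine, stood at 335, 364 and 360.1 CPM in control replicates 1 to 3 and at 667, 667 and 697 CPM in NET replicates 1 to 3. Every NET library held more than each control library, 1.92-fold higher (log2 fold change 0.94, SE 0.0495, adjusted p = 1.33e-10). Slc6a8, the creatine transporter, stood at 41.96, 41.8 and 38.7 CPM in the control libraries and 57.7, 64.0 and 60.5 CPM in the NET libraries and was 1.49-fold higher (log2 fold change 0.57, SE 0.0588, adjusted p = 6.84e-07). Slc6a12, the betaine and GABA transporter, had 10, 2 and 8 counts in control medium and 50, 24 and 43 counts with NETs, at the edge of detection (7.63-fold higher, log2 fold change 2.93, SE 0.439, adjusted p = 4.58e-05). No control library of Slc6a12 passed the filter, so it entered the test only through the group where it was high, and its fold and p-value are given as a description. Slc6a9, the glycine transporter GlyT1, moved down, at 61.4, 68.2 and 61.5 CPM in the control libraries and 52.1, 52.4 and 55.4 CPM in the NET libraries (1.19-fold lower, log2 fold change -0.26, SE 0.0578, adjusted p = 0.00204). Slc6a9 overlaps B4galt2 on the other strand, which rose from 13.4 ± 1.18 to 16.9 ± 0.930 CPM (adjusted p = 0.00446). Slc6a14, a broad neutral and cationic transporter, lay between 0.133 and 0.399 CPM with overlapping groups (adjusted p = 0.3). The other 16 genes of the family, which include the transporters of GABA, dopamine, noradrenaline, serotonin and proline, were not tested. Of these Slc6a13 and Slc6a4 had at most 12 counts in a library and 8 had none.

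Slc36a1, the proton-coupled PAT1 transporter that lets small amino acids out of lysosomes, stood at 29.1, 30.1 and 25.6 CPM in the control libraries and 24.5, 23.1 and 22.3 CPM in the NET libraries. Its groups did not overlap, and it was 1.21-fold lower (log2 fold change -0.28, SE 0.0739, adjusted p = 0.00664). Slc36a2 had 10, 4 and 2 counts in control medium and 6, 13 and 24 counts with NETs, the highest being the largest count of any untested member, and Slc36a3 and Slc36a4 had at most 8 and 2. Slc43a2, the LAT4 facilitator for leucine and phenylalanine, stood at 70.4, 75.2 and 65.1 CPM in the control libraries and 84.2, 74.7 and 76.8 CPM in the NET libraries, with overlapping groups and a call close to the threshold (log2 fold change 0.16, SE 0.0624, adjusted p = 0.0483). That call ended in 8 of 16 alternatives, with log2 fold changes from 0.09 to 0.18. Slc43a1, the related LAT3 gene, had no count in any library, and Slc43a3 had 2 counts in 1 library. The opposite-strand gene Slc7a6os, which is no transporter, stood at 27.2, 29.5 and 31.4 CPM in the control libraries and 27.1, 32.4 and 30.1 CPM in the NET libraries (adjusted p = 0.852), and the other 3 such genes had at most 6 counts.

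**Figure D3:**
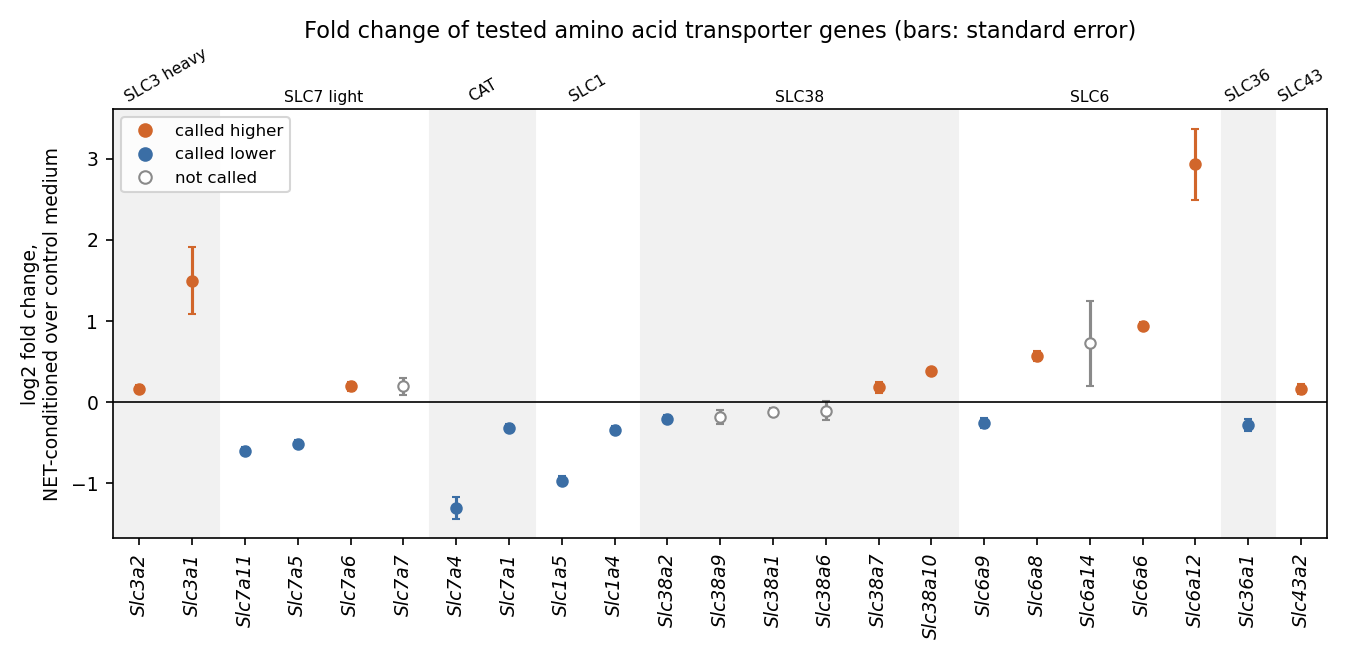
Log2 fold change of the 23 tested transporter genes, NET-conditioned over control medium, with standard errors from the edgeR fit and filled points for genes that passed the test. The cationic and SLC1 genes lie below 0 (from -1.30 for Slc7a4 to -0.32 for Slc7a1), whereas Slc6a6 and Slc6a8 lie at 0.94 and 0.57.

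Compared per length, Slc7a5 was the most abundant transporter mRNA in control medium at 167 ± 6.22 RPKM, followed by Slc3a2 at 107 ± 2.81 RPKM, Slc38a2 at 78.3 ± 1.11 RPKM, Slc6a6 at 41.7 ± 1.84 RPKM, Slc7a1 at 34.7 ± 0.998 RPKM and Slc1a5 at 31.6 ± 0.395 RPKM. In the 3 control libraries each of these lay above the next without overlap. The order depends on the deposited gene lengths. With NETs the first 4 places were held by Slc3a2 (119.9 ± 2.27 RPKM), Slc7a5 (118 ± 4.23 RPKM), Slc6a6 (80.1 ± 2.00 RPKM) and Slc38a2 (67.8 ± 1.83 RPKM). The order of Slc7a5 and Slc3a2 then differed between NET libraries. Slc1a5 went from place 6 to place 9 and Slc7a11 from 12 to 15. RPKM summed over all 63 transporters were 605, 606 and 598 in control medium and 577, 568 and 581 with NETs, a lower sum in each NET library. The SLC6 family made up 9.90% to 10.6% of that sum in control medium and 17.5% to 18.1% with NETs, and the SLC7 light chains 32.1% to 33.4% and 25.2% to 26.2%. These sums are descriptions, with no test, and are carried by the most abundant genes. In the SLC6 family that was Slc6a6, at 41.7 RPKM in control medium and 80.1 RPKM with NETs. Slc6a8 went from 7.84 to 11.7 RPKM and Slc6a9 fell from 12.4 to 10.4 RPKM.

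**Figure D4:**
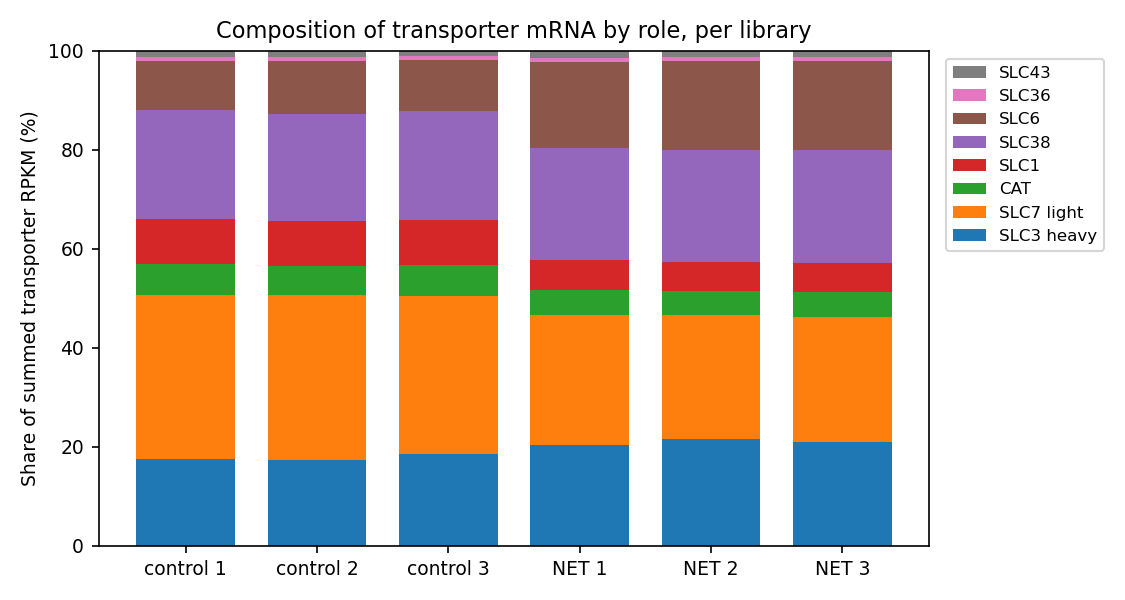
Share of the summed transporter RPKM held by each role in each of the 6 libraries, as stacked bars from 0 to 100%. The SLC6 share, most of it Slc6a6, averages 10.3% in control medium and 17.8% with NETs. The SLC7 light chain share averages 32.9% and 25.6%, and the SLC1 share 9.03% and 5.93%.

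Of 22 tested genes on the list of GCN2, ATF4 and their targets in the amino acid starvation response 16 fell (background 18.7%) and 3 rose (background 20.2%), with a median log2 fold change of -0.31. Cth, which makes cysteine from cystathionine, went from 39.1 ± 2.45 to 19.8 ± 1.09 CPM (log2 fold change -0.98, SE 0.0695, adjusted p = 6.64e-09) and Trib3, a feedback inhibitor of ATF4, from 324 ± 9.17 to 205 ± 9.02 CPM (adjusted p = 1.20e-08, log2 fold change -0.66). The rise with the smallest p-value was Ddit4, the mTORC1 inhibitor REDD1, from 241 ± 17.7 to 667 ± 53.5 CPM (2.77-fold, adjusted p = 4.23e-11, log2 fold change 1.47). Atf4 itself stood at 635 ± 3.56 CPM over the control libraries and at 597 ± 4.29 CPM over the NET libraries and did not pass (adjusted p = 0.135). ATF4 is known to be controlled mainly through translation, which these data do not measure.

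Of 33 tested genes of amino acid sensing, mTORC1 and its regulators, 4 rose (background 20.2%) and 4 fell (background 18.7%), with a median log2 fold change of -0.08. Castor1, an arginine sensor that restrains mTORC1, rose from 12.7 ± 1.01 to 38.5 ± 2.65 CPM (3.04-fold, adjusted p = 4.57e-11, log2 fold change 1.60) and Sesn3, of the sestrin family of mTORC1 inhibitors, from 40.8 ± 3.92 to 95.1 ± 4.70 CPM (2.33-fold, adjusted p = 4.35e-10, log2 fold change 1.22). Sec13, a subunit of the GATOR2 complex and of the secretory coat, rose by less (adjusted p = 0.000728, log2 fold change 0.24). The number that fell rose to 16 with library size alone, and was 1 without control replicate 1 or NET replicate 3.

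Of 8 tested transporters of amino acids and peptides outside the 7 families, 4 rose (background 20.2%) and 1 fell (background 18.7%), with a median log2 fold change of 0.26, and without control replicate 2 or NET replicate 3 none fell. The smallest p-values were those of Slc15a3, a lysosomal peptide and histidine transporter (3.02 ± 0.557 to 7.36 ± 0.731 CPM, adjusted p = 2.07e-06, log2 fold change 1.29), Slc15a2, a peptide transporter (adjusted p = 1.02e-05, log2 fold change 1.34), and Slc16a10, the TAT1 transporter of aromatic amino acids (adjusted p = 0.00063, log2 fold change 1.18). Slc15a4, a lysosomal relative of Slc15a3, was more abundant than these and did not pass (19.8 ± 1.29 to 19.3 ± 2.41 CPM, adjusted p = 0.814, log2 fold change -0.03).

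In glutamine and glutamate metabolism 8 of 17 tested genes fell (background 18.7%) and 4 rose, near the background of 20.2% (median log2 fold change -0.10). Asns, which makes asparagine with glutamine as nitrogen donor, went from 459.5 ± 15.4 to 344 ± 4.74 CPM (adjusted p = 1.86e-06, log2 fold change -0.42), Gpt2, a mitochondrial alanine transaminase, fell as well (adjusted p = 3.60e-06, log2 fold change -0.38), and so did the proline synthesis gene Aldh18a1 (adjusted p = 2.85e-05, log2 fold change -0.31). These genes, and Pycr1, which also fell, were already counted on the ATF4 list. The number that rose was 2 with library size alone or no low-count filter, 2 without control replicate 1, control replicate 2 or NET replicate 2, and 1 without NET replicate 3.

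Of 14 tested genes of branched-chain, serine and glycine metabolism 7 fell (background 18.7%) and 3 rose, near the background of 20.2% (median log2 fold change -0.15). Psat1, of serine synthesis, went from 704 ± 13.9 to 462 ± 9.24 CPM (adjusted p = 1.53e-08, log2 fold change -0.61) and Shmt1, which makes glycine from serine, fell (adjusted p = 0.000554, log2 fold change -0.33). Psat1 and Phgdh, Psph and Shmt2, which also fell, were already counted on the ATF4 list. Bckdha, a subunit of the dehydrogenase that breaks down branched-chain keto acids, rose (adjusted p = 0.000138, log2 fold change 0.39). Bcat1, the cytosolic branched-chain transaminase, was near 0 in both groups.

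Of 12 tested genes of glutathione synthesis and cystine use 4 rose (background 20.2%) and 4 fell (background 18.7%), or 2 fell without NET replicate 3. Their median log2 fold change was -0.08. Beside the lower Slc7a11, Gclc, the catalytic subunit of the enzyme that starts glutathione synthesis, rose from 46.2 ± 1.24 to 76.3 ± 4.38 CPM (1.65-fold, adjusted p = 2.32e-08, log2 fold change 0.72). Chac1, which degrades glutathione, fell (adjusted p = 0.00012, log2 fold change -0.46) and stands on the ATF4 list too, as does Cth.

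Ubiquitin ligases and kinases that act on transporters at the membrane rose in 5 of 11 tested genes (background 20.2%) and fell in 1 (background 18.7%), with a median log2 fold change of 0.15. Sgk1, a kinase that keeps several transporters at the surface, rose from 76.4 ± 8.53 to 193 ± 16.5 CPM (2.52-fold, adjusted p = 3.43e-08, log2 fold change 1.33) and its relative Sgk3 rose (adjusted p = 3.80e-06, log2 fold change 0.45), while Sgk2 went from 13.1 ± 1.10 to 1.47 ± 0.397 CPM (adjusted p = 6.30e-11, log2 fold change -3.18). The ligase genes Rnf5, Itch and Wwp1 rose as well (log2 fold changes 0.28, 0.19 and 0.18, adjusted p = 0.000679, 0.00336 and 0.024). Nedd4l, a ligase that removes transporters from the membrane, did not pass (adjusted p = 0.0913, log2 fold change 0.15). Neither did the ligase genes Nedd4 and Wwp2 (adjusted p = 0.0709 and 0.246). Several genes stand on more than one of these lists, and their counts are not independent of each other.

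**Figure D5:**
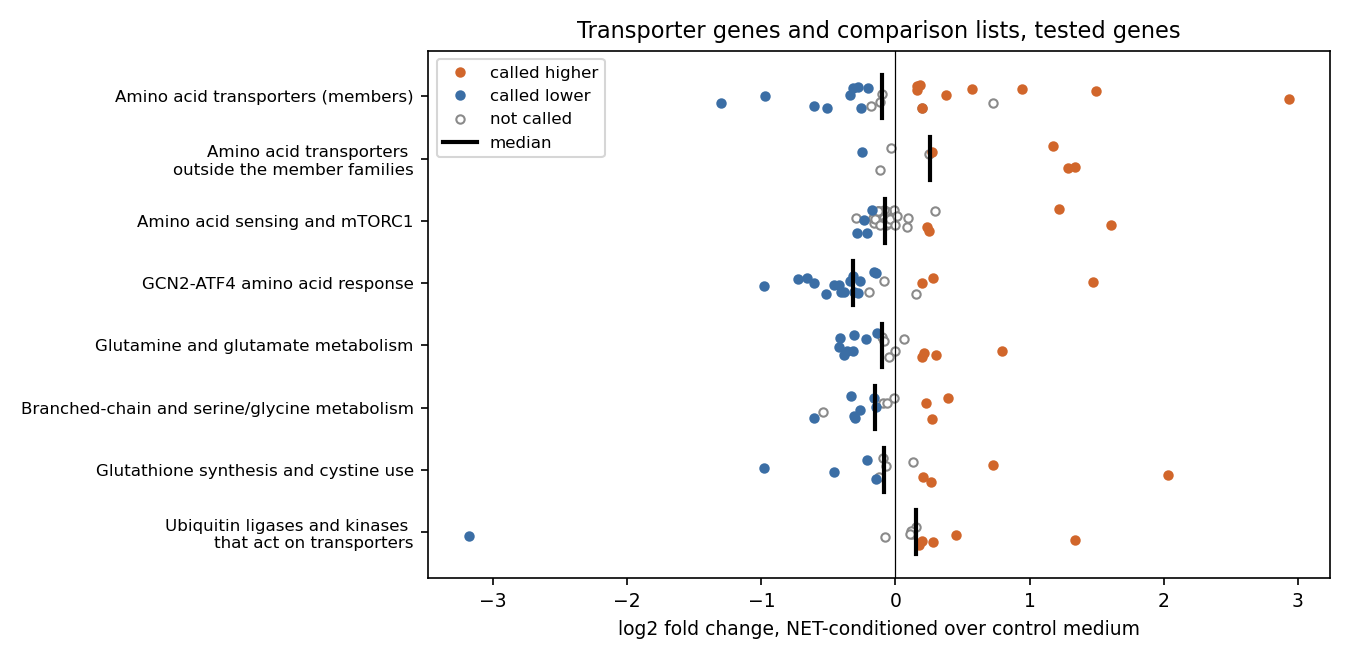
Log2 fold change of each tested gene of the transporters and of 7 comparison lists, with the list median as a black bar and filled points for genes that passed the test. The median is -0.10 for the transporters, -0.31 for the GCN2-ATF4 list and -0.08 for the mTORC1 list, whose points gather around 0.

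The libraries held 31119105 to 64431811 counts, of which 74.8% to 78.4% of the counts between 1 and 20 were even, and counts were treated as reads with 2 per fragment. Markers of mammary epithelium were present in all libraries (8 genes tested, summed 3568 to 3779 CPM per control library and 3492 to 3679 CPM per NET library). Of these, 2 rose and 2 fell: Krt14 rose from 6.33 ± 0.569 to 102 ± 5.44 CPM (adjusted p = 1.11e-16) and Krt8 by a log2 fold change of 0.25 (adjusted p = 0.000491), while Krt18 and Cdh1 were lower (log2 fold changes -0.27 and -0.14, adjusted p = 0.000377 and 0.0281). Of 16 neutrophil markers 8 were at 0 in every library, among them Elane, Camp, Ngp and Csf3r, and the rest summed to 179 to 262 CPM per control library and 27.7 to 32.4 CPM per NET library, nearly all of it Ltf, which mammary epithelium also expresses. S100a8 went the other way, from 1.38 ± 0.300 to 2.63 ± 0.148 CPM (adjusted p = 0.00136), and Cxcr2 stood at 0.221 and 0.481 CPM and did not pass (adjusted p = 0.0575). Leukocyte markers summed to at most 0.580 CPM over 6 genes. Of 7 fibroblast markers Dcn and Lum were at 0, and the sum was 43.9 to 50.1 CPM per control library and 60.2 to 69.7 CPM per NET library. Pdgfra was the most abundant of these and did not pass (45.4 ± 3.37 to 49.2 ± 2.13 CPM, adjusted p = 0.164), and Col1a1 rose from 1.18 ± 0.129 to 13.4 ± 2.48 CPM (11.3-fold, adjusted p = 2.34e-11). Their part in the transporter results was not tested. Gene spans in the table's coordinates include exons and introns and are 122607889 to 122634433 of chromosome 8 (Slc7a5), 8684246 to 8700733 of chromosome 19 (Slc3a2), 49846975 to 50398063 of chromosome 3 (Slc7a11), 16515265 to 16532199 of chromosome 7 (Slc1a5) and 91661034 to 91736047 of chromosome 6 (Slc6a6). The submitters' notes name mm10, but only 13 of the 67 members (19.4%) overlapped their GRCm38 span. For most members the table's coordinates are thus not GRCm38 positions, and the build they come from was not determined.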

How the data were processed

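The authors deposited a single table of whole-number counts per gene symbol, used as deposited. Per the submitters' processing notes reads were handled with STAR 2.7.10a and featureCounts of Subread 2.0.3 on build mm10, and per the labels' protocols the libraries came from a stranded mRNA kit. Not given in the sources used here are the strand setting, the handling of multi-mapping reads and the annotation release. The deposited column of gene lengths in bases, per the file headers, was used for RPKM. Orders and ratios between genes depend on these lengths, for example 13922 bases for Slc7a11 and 3708 for Slc7a5. The lengths of the transcripts that the cells expressed were not determined.

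Libraries were scaled by TMM and genes filtered by filterByExpr (minimum count 10, about 0.203 CPM in at least 3 libraries), which left 13956 genes. Groups were compared with edgeR 4.0.16 (glmQLFit, robust, and glmQLFTest) in R 4.3.3, without a block, with Benjamini-Hochberg adjustment over all tested genes at 0.05. The common biological coefficient of variation was 0.0620. The SE is the log2 fold change over the square root of F. A count of 0 was read as at most 3 fragments (6 counts), which covers counting error only. Within groups chi-square over degrees of freedom was 9.59 to 25.1 between libraries, above counting noise, so no library was treated as deposited in duplicate; this does not show that cultures were separate. The test was run on simulated counts whose spread was estimated from these same libraries, which checks the code and not the calls.

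The members and lists were chosen with earlier results of these data known. Values per library are given for 20 members named by role, where tested, and for the 6 largest rises and falls among called members with a mean of at least 5 CPM. Of each comparison list up to 3 genes with the smallest p-values are given, and any other gene named was picked with its values in view. Alternatives were other scalings, low-count filters, DESeq2 1.42.0, limma-voom (limma 3.58.1), no robust estimation, halved counts, the replicate block and leaving out each library.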

Additional observations from a re-analysis of the deposited data

How the results depend on the processing

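Of 364 refits of the 23 tested transporters, 338 kept direction and side of the threshold, 20 lost a call, 5 gained one and 1 turned direction, and 15 genes were the same throughout. Slc3a1, Slc6a12 and Slc6a14 gave no value in alternatives whose filter removed them. The reversal was that of Slc38a6, which was not called and ranged from -0.2098 to 0.000519 on the log2 scale when 1 library was left out, the upper end without NET replicate 1. The count of transporters that fell, 9, ranged from 9 to 11, and that of those that rose, 9, was 5 with library size alone and 6 to 9 elsewhere. With library size alone 2106 genes rose and 3763 fell over the whole table (35.9% of calls higher, against 52.0%), and the median log2 fold change of all genes went from 0.00 to -0.07. With that scaling the lower count was 16 for amino acid sensing and mTORC1 (main 4), 2 for transporters outside the families (main 1) and 2 for ubiquitin ligases and kinases (main 1), and the higher count was 2 for glutamine and glutamate metabolism (main 4), as it was with no low-count filter. With upper-quartile scaling the lower count for mTORC1 was 9.

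Leaving out 1 library gave lower counts of 0 to 1 for transporters outside the families, 1 to 6 for mTORC1 and 2 to 4 for glutathione, and higher counts of 1 to 3 for glutamine and glutamate. Same-numbered libraries deviated from their group means with correlations of 0.189, -0.0961 and 0.102. With 3 libraries per group such correlations cannot tell whether same-numbered libraries shared a batch or culture. With the replicate number as a block 9 transporters rose and 10 fell, the added call being Slc38a1 (log2 fold change -0.12, adjusted p = 0.0442), and 2969 and 2713 genes were called over the table. Not every library correlated best with its own number. None of the 40 untested transporters exceeded 24 counts in a library, and whether those at 0 are absent or below this depth was not tested.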

Other observations

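A few further genes were looked at after the values of the taurine and betaine transporters had been seen. Slc5a3, which takes up myo-inositol, stood at 43.6, 43.4 and 39.1 CPM in the control libraries and at 24.9, 22.1 and 22.0 CPM in the NET libraries. It was 1.83-fold lower without overlap of the groups (log2 fold change -0.87, SE 0.0698, adjusted p = 3.19e-08, edgeR). Akr1b3, the aldose reductase that makes sorbitol, went from 95.2 ± 6.50 to 128 ± 4.75 CPM and was 1.35-fold higher (log2 fold change 0.43, SE 0.0554, adjusted p = 8.43e-06). Nfat5, the transcription factor of the response to high tonicity, did not pass (log2 fold change 0.21, SE 0.0842, adjusted p = 0.0737).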
